A study of Mus musculus with 16 samples.

Results

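Cholesterol synthesis and its control by SREBP2 were followed through 28 genes in the livers and liver tumours of mice given DEN, the liver carcinogen diethylnitrosamine. The genes were listed by name as parts of the pathway, and each had to reach a normalised count of 10 in at least 2 of 16 RNA-seq libraries. All 28 did, each in 16 of 16 libraries, out of 47069 genes listed and 14836 that met the same requirement. The groups were 3 tumours of 9 months under a high-fructose diet and 2 tumours of 9 months under a cornstarch diet. There were also 3 livers of 9 months under fructose and 3 under cornstarch, and 2 livers of 5 months under fructose and 3 under cornstarch. Every library came from a DEN-treated animal, so no group without the carcinogen was compared. The strain, the sex, the DEN dose and schedule, the time on the diet, feeding state at harvest and the number of mice are not given in the sources used here. Replicates were numbered here, and the labels do not say that they came from separate mice. The p-values therefore measure the spread between these samples, which may be technical in part.

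Cells build cholesterol from acetyl-CoA. The first enzymes lead through mevalonate to the isoprenoid farnesyl diphosphate, a second set makes squalene and folds it into lanosterol, and the last set trims lanosterol to cholesterol. SREBP2, the product of Srebf2, is the transcription factor that drives these genes. Its precursor sits in the endoplasmic reticulum bound to the escort protein Scap, and when sterols are plentiful the Insig proteins hold that complex back. When sterols run low, SREBP2 is carried to the Golgi, cut, and sent to the nucleus, where it also switches on Insig1. The liver is the main organ of cholesterol synthesis and export in the body.

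The proximal promoters of 22 of the 28 genes could be searched, as windows of 250 bases before to 50 bases after a RefSeq transcript start (GRCm38.p6). The set of promoters used here had no entry for the other 6: Fdps, Fdft1, Sqle, Stard4, Npc1 and Soat2. The strict sterol regulatory element TCACNCCAC, searched on both strands, stood in 1 of the 22 genes (4.55%), Hmgcs1, against 1.44% of 27025 genes. The looser form TCACNNCAC, added after the first search and holding all strict matches, stood in 4 of 22 (18.2%), against 4.37% of all genes. The 4 matches are shown because they are the letters nearest to the known binding site of SREBP2. Capitals mark the motif, each sequence is on the gene's own strand, and distances are from the RefSeq start to the motif. The Msmo1 and Dhcr7 matches lie inside the gene as annotated in GENCODE M21, which begins further upstream, at 64733792 and 143823145. Dhcr7 had 3 RefSeq windows, and its match is before the start of window 2 only.
Hmgcs1, 129 bases before the start, chr13:119690204-119690232, plus strand: cgtcaccgtcTCACCCCACttcccaggtc
Msmo1, 84 bases before the start, chr8:64733652-64733680, minus strand: cacggaccaaTCACTGCACggcgaaggca
Hsd17b7, 109 bases before the start, chr1:169969304-169969332, minus strand: tcggcctatcTCACCTCACccggtctggg
Dhcr7, 122 bases before the start, chr7:143823259-143823287, plus strand: ggaaaagggcTCACTTCACcttatagctc

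The CCAAT box, bound by the cofactor NF-Y with which SREBP proteins act, stood in 20 of 22 of these genes (90.9%) and in 41.1% of all genes. GGGCGG, the core of the Sp1 site, stood in 20 of 22 (90.9%) and in 38.2% of all genes, and TCACGTGA, an E-box that SREBP proteins can also bind, in 0 of 22 and in 1.12%. These are matches of letters within a short window and were not tested. The shares of all genes are over 27025 genes that were not limited to those expressed in liver, whereas the genes followed here all were. CCAAT windows of 4 genes that were higher in tumours are shown, with the box in capitals.
Lss, 58 bases before the start, chr10:76531533-76531557, minus strand: gcgagctcggCCAATcagagcatca
Mvk, 46 bases before the start, chr5:114444209-114444233, plus strand: aatgtttgacCCAATctgtaaagga
Srebf2, 131 bases before the start, chr15:82147124-82147148, minus strand: cttgcattagCCAATcggcgcgcga
Insig1, 212 bases before the start, chr5:28071186-28071210, minus strand: gccgccggagCCAATgggaggaggg
In Lss, Srebf2 and Insig1 the box lay on the strand opposite to the gene, and the sequence is written 5′ to 3′ on the strand that holds the box.

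Recovered library totals were 11232461 to 38377674 reads, and the fewest reads behind any value of these genes were 28, for Mvd in replicate 2 of the 9-month cornstarch livers. Hepatocyte markers were abundant everywhere: the summed normalised counts of 7 genes were 1196840 to 3621630 in tumours and 1056070 to 2331640 in livers, most of it Alb. In 2 libraries, replicate 1 of each 5-month group, Xist was high and Y-linked genes were at or near 0, the pattern of females. The other 14 libraries had the male pattern, with Xist at 0 to 25.8 except in replicate 3 of the 9-month cornstarch livers, at 226.3. The 2 livers of 5 months under fructose also stood apart in neutrophil transcripts, with summed counts of 17770.4 and 19495 over 5 markers, against 7.19 to 70.6 in the 3 cornstarch livers. In whole tissue, fewer cells of a type and less RNA per cell cannot be told apart.

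The 28 genes varied widely from library to library within a group. The median standard deviation within groups was 0.643 on the log2 scale, against 0.228 over the 8848 genes with a mean value in the same range. Between the lowest and the highest of the 16 libraries, 12 genes differed at least 10-fold and 4 less than 3-fold. Sqle, squalene epoxidase, a rate-limiting enzyme after mevalonate, varied most, from 71.9 to 5672 normalised counts, or 78.9-fold. Ggps1, which leads farnesyl diphosphate away from sterols to protein prenylation, varied least, from 84.1 to 136, or 1.61-fold.

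Most of the genes went up and down together in single libraries. Replicate 2 of the cornstarch tumours was above replicate 1 for 28 of 28 genes and held the highest value of all libraries for 18. Among livers, replicate 1 of the 9-month cornstarch group was highest for 15 of 28 genes and replicate 3 for 7. Replicate 2 of that same group was lowest of its 3 livers for 22 of 28. Replicate 1 of the 9-month fructose livers was lowest of its group for 23 genes and lowest of all 16 libraries for 11. Replicate 2 of the 5-month cornstarch livers was lowest of its group for 23. The comparisons below rest on 2 or 3 such libraries a group.

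**Figure D1:**
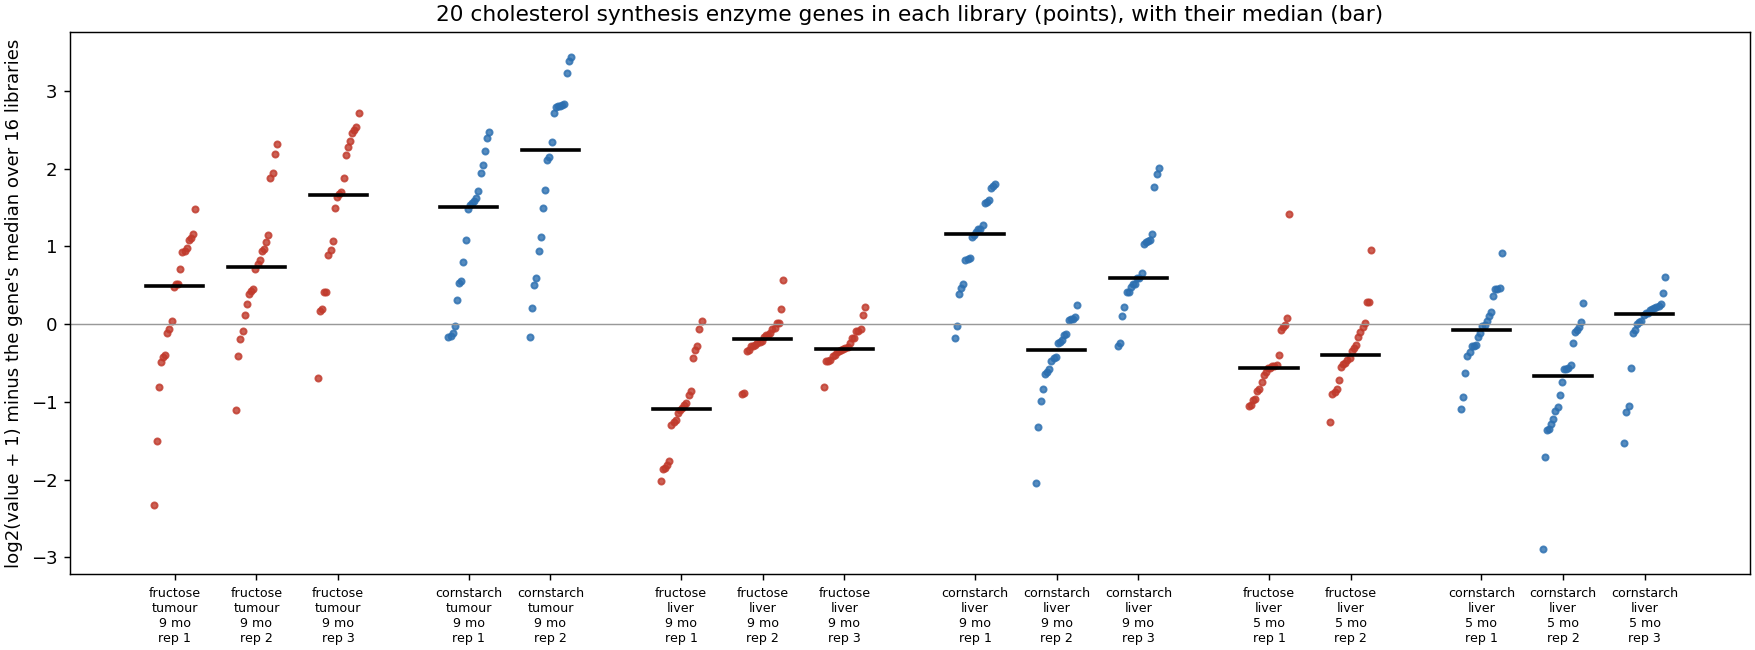
The 20 synthesis enzyme genes in each of the 16 libraries, as log2(value + 1) minus the gene's own median over all libraries; each point is a gene and the bar is the median of the 20. The medians were 0.50, 0.74 and 1.66 in the fructose tumours, 1.51 and 2.25 in the cornstarch tumours, -1.09, -0.19 and -0.31 in the 9-month fructose livers and 1.17, -0.33 and 0.60 in the 9-month cornstarch livers.

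Per kilobase of exon (GENCODE M21), mean normalised counts over 16 libraries ranged from 23.8 for Ggps1 to 1262 for Ebp, the isomerase that moves a double bond in the sterol ring. Sc5d, the sterol desaturase next in the pathway, followed at 1089 per kilobase, then Insig2 at 913 and Insig1 at 899. Fdps, which makes farnesyl diphosphate, had 803 and Hmgcs1, the mevalonate-pathway synthase, 709.8 per kilobase. The order differed in tumours. In fructose tumours Ebp averaged 621 per kilobase, below Insig1 at 1339, Sc5d at 1242, Fdps at 1014, Hmgcs1 at 945 and Insig2 at 802. In cornstarch tumours Ebp averaged 1346, below Hmgcs1 at 2372, Sc5d at 2225, Fdps at 1727 and Insig1 at 1701. The C14 sterol reductase step is served by a pair of genes, and Tm7sf2, at 258 per kilobase on average, exceeded Lbr, which also anchors chromatin to the nuclear envelope, at 37.7. In replicate 1 of the fructose tumours they were close, at 45.6 per kilobase for Tm7sf2 and 43.5 for Lbr. Srebf2 itself was low, at 129.6 per kilobase. The length used joins the annotated exons of all transcripts of a gene, 10787 bases for Lss. Genes whose transcripts here use only part of that length are understated, so the order between genes is approximate. For 11 of the 28 genes an exon overlaps another gene, among them Fdft1 with Ctsb, Cyp51 with Akap9, Tm7sf2 with Vps51 and Lbr with Dnah14. The sources used here do not say whether reads were counted by strand, so these values may hold reads of the neighbour. Acat2, the cytosolic thiolase, has a close paralogue, Acat3, and its count is uncertain for that reason.

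The highest group mean was in cornstarch tumours for 20 of 28 genes, and the lowest was in the 5-month fructose livers for 13, in the 9-month fructose livers for 6 and in the 5-month cornstarch livers for 3.

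The first comparison asked how tumours differed from livers of the same age and diet. Under fructose, Sqle, Lss and Fdft1 of the squalene steps, Cyp51 and Dhcr7 of the steps after lanosterol and Mvk of the mevalonate steps rose in tumours, and Ebp fell. That was 6 of 28 genes higher (21.4%) and 1 lower (3.57%), where 10.2% of 14503 genes passed in either direction, 5.75% higher and 4.46% lower. The median log2 fold change over the 28 was 1.05, against -0.0032 over all genes, and 23 were positive. Tumours and livers did not overlap for 14 genes that were higher (50%, against 17.2% of all genes) and for 1 that was lower (16.8% of all genes), where 34% of all genes separated either way. A gene counts as passed when its limma p, adjusted over all genes by Benjamini and Hochberg, is under 0.05.

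**Figure D2:**
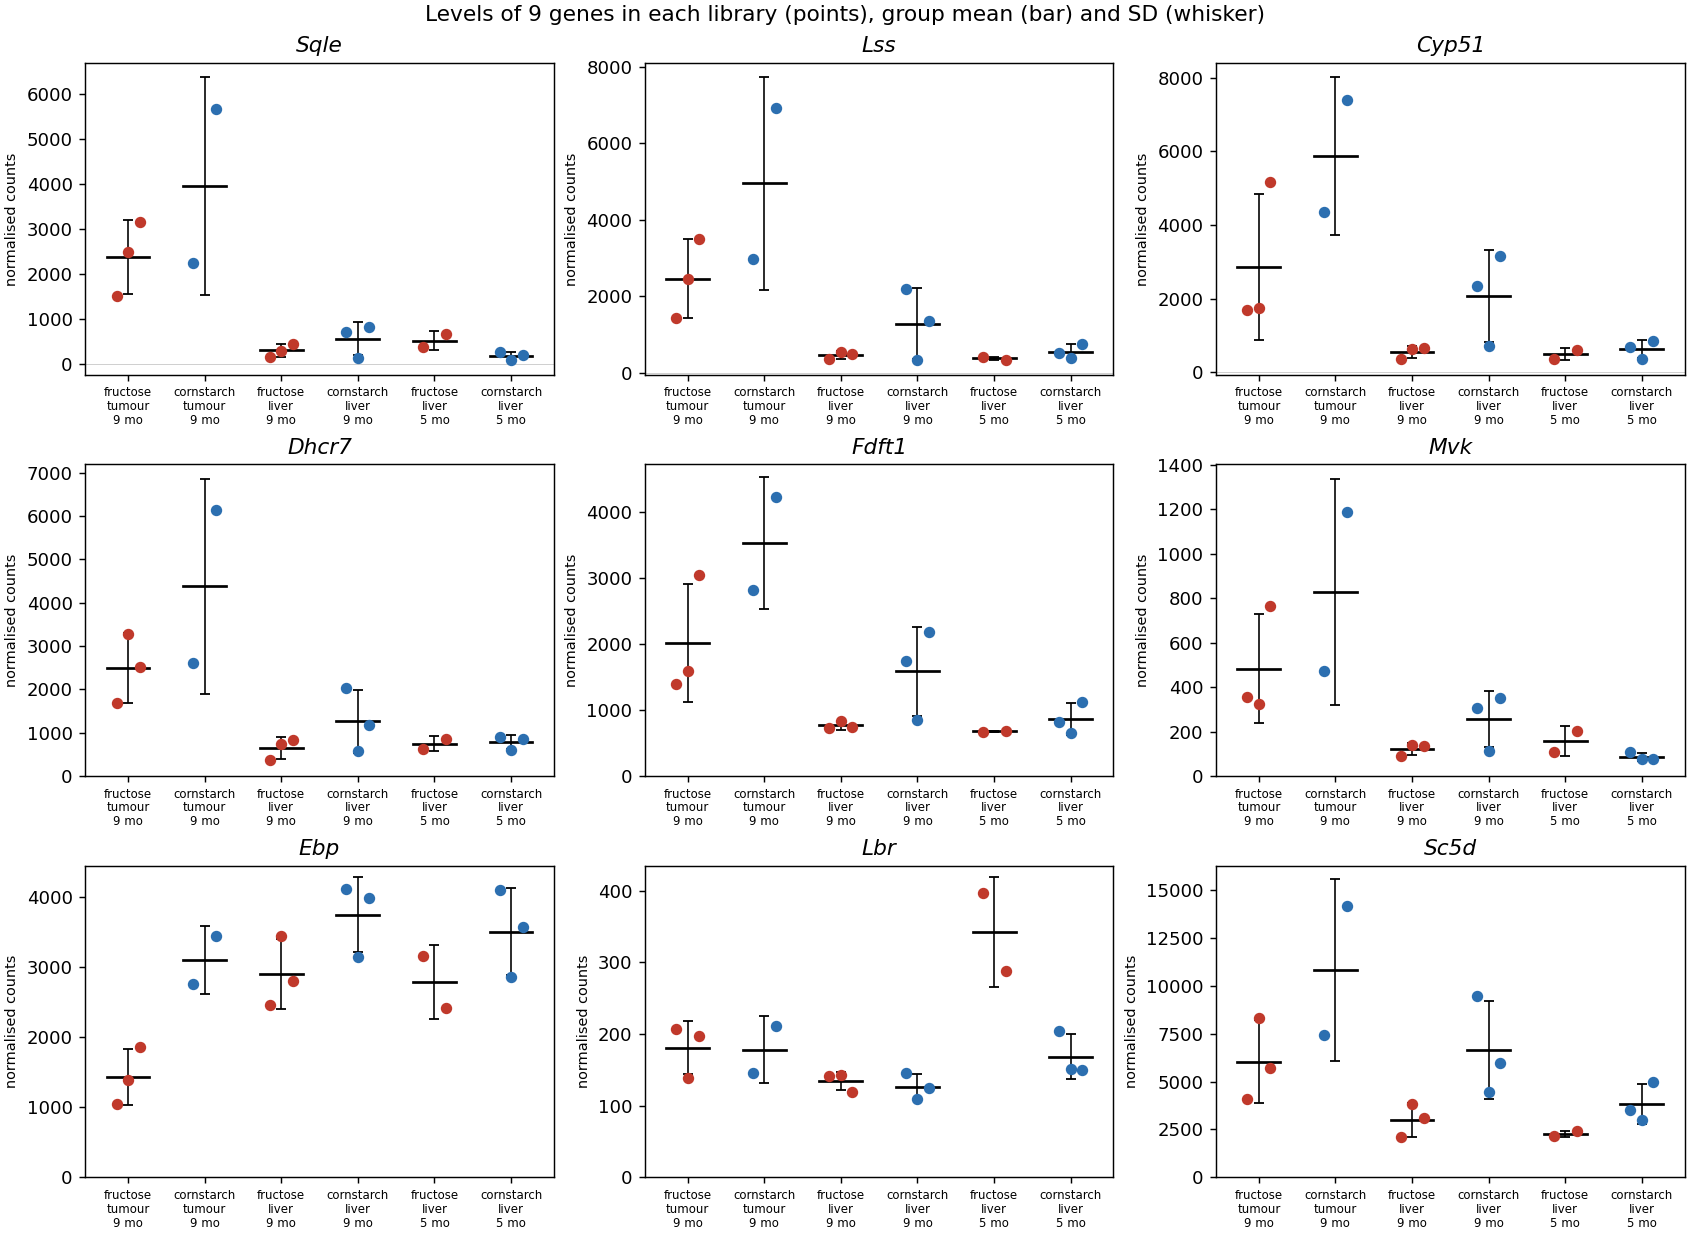
Normalised counts (linear axis) of 9 of the genes in each library (points), with the group mean (bar) and SD (whisker), 2 or 3 libraries a group. Sqle lay at 1518 or more in each of the 5 tumours and at 821 or less in each of the 11 livers, while Ebp was lowest in the 3 fructose tumours, at 1054 to 1857, and Lbr was highest in the 2 livers of 5 months under fructose.

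All 3 genes of the squalene steps rose in the fructose tumours. Sqle (chromosome 15, 59315077 to 59331192, plus strand, GRCm38) had 1518, 2479.6 and 3149 normalised counts in fructose tumours, against 149, 290.0 and 444 in fructose livers. The lowest tumour was thus over 3-fold above the highest liver, and the fitted rise was 8.49-fold (log2 fold change 3.09 with SE 0.68, limma adjusted p = 0.0191). Lss, which closes squalene into lanosterol, had 1427, 2462 and 3505 in tumours and 349.6, 539.8 and 485 in livers, with no overlap (log2 fold change 2.35 with SE 0.62, limma adjusted p = 0.0387). Fdft1, squalene synthase, had 1401, 1593 and 3045 in tumours and 722, 838 and 736 in livers, also without overlap (log2 fold change 1.31 with SE 0.37, limma adjusted p = 0.0473). Fdft1 was the weakest of these calls and shares 774 exon bases with Ctsb.

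Of the 9 genes that turn lanosterol into cholesterol, 2 rose and 1 fell. Cyp51, the lanosterol 14-demethylase that opens this stretch, had 1686, 1735 and 5160.5 in fructose tumours and 355, 623 and 660.3 in fructose livers (log2 fold change 2.23 with SE 0.57, limma adjusted p = 0.0353). Replicate 3 stood far above the other 2 tumours, and each of the 3 exceeded every liver of the group. Dhcr7, the last reductase, which yields cholesterol itself, had 1682, 3282 and 2508 in tumours and 360.0, 737 and 831 in livers (log2 fold change 1.99 with SE 0.50, limma adjusted p = 0.0316). The lowest tumour had about 2 times the value of the highest liver. Msmo1, a demethylating oxidase, had a log2 fold change of 1.93 (adjusted p = 0.0531), Nsdhl, its partner dehydrogenase, 1.61 (adjusted p = 0.116), Hsd17b7, the ketoreductase, 0.86 and Sc5d 0.99, and 0 of these 4 passed the limma test.

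Ebp went the other way. It had 1054, 1396 and 1857 normalised counts in fructose tumours, against 2466, 3446 and 2808 in fructose livers, a fitted 2.06-fold fall (log2 fold change -1.04 with SE 0.22, limma adjusted p = 0.0177). All 3 tumours lay below all 3 livers, and also below every other library of the series. In cornstarch tumours Ebp had 2766 and 3451, within the range of the livers. The other 4 genes with a negative log2 fold change were Insig2 at -0.35, Tm7sf2 at -0.10, Ggps1 at -0.05 and Npc2 at -0.02, and their groups overlapped. Lbr was positive, at 0.41, with overlap.

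Among the 8 genes of the mevalonate steps 1 passed, Mvk, mevalonate kinase. It had 357, 324 and 766 in fructose tumours and 88.4, 138 and 134 in fructose livers (log2 fold change 1.91 with SE 0.50, limma adjusted p = 0.036), so the lowest tumour was over 2 times the highest liver. Mvd, the decarboxylase, had a log2 fold change of 2.36 (adjusted p = 0.0565), Hmgcs1 of 1.53 (adjusted p = 0.0645) and Idi1, the isomerase that follows, of 1.99 (adjusted p = 0.0869). These 3 missed the threshold, although the groups did not overlap. Fdps, at 1.46, Pmvk, the second kinase, at 0.81, and Acat2, at 0.34, overlapped between the groups.

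The calls under fructose depended on single libraries, since 3 were set against 3. Of the 7 calls, only Ebp passed without replicate 1 of the fructose livers and 0 passed without replicate 2 of them. Sqle and Hmgcs1 passed without replicate 3 of those livers, and Sqle and Ebp without replicate 3 of the fructose tumours. The count was 14 with DESeq2, which called 2463 of all genes, and 11 with 1 fit of all libraries, which called 2246.

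Under cornstarch, Sqle and Srebf2 rose, 2 of 28 genes (7.14%), where 5.71% of 14503 genes passed, 4.82% higher and 0.889% lower. The median over the 28 was 0.99, against 0.00011 over all genes, and 22 were positive. Tumours and livers did not overlap for 12 genes, all higher (42.9%, against 21.8% of all genes). With only 2 tumours, 40.5% of all genes separated, 18.7% with lower values in tumours.

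Sqle had 2244 and 5672 in cornstarch tumours, against 709.7, 131 and 821 in cornstarch livers (log2 fold change 3.07 with SE 0.76, limma adjusted p = 0.0439). The fitted rise was 8.39-fold, with livers that themselves differed over 6-fold. On the log2 scale it was 2.22 without replicate 2 of the cornstarch livers, 2.40 without replicate 2 of the cornstarch tumours and 3.74 without replicate 1 of them. Srebf2 (chromosome 15, 82147181 to 82205379, plus strand) had 1243 and 1836 in cornstarch tumours and 730.0, 439 and 775 in cornstarch livers (log2 fold change 1.26 with SE 0.29, limma adjusted p = 0.0368). Replicate 2 was the higher tumour for both genes. Hmgcs1 had 7742 and 14056 in tumours and 3556, 1719.5 and 2884 in livers, the third smallest p and just short of the threshold (4.01-fold, with a log2 SE of 0.52, limma adjusted p = 0.0521). Both calls were lost without replicate 2 of the cornstarch tumours, and without replicate 1 or 2 of the cornstarch livers or of the fructose livers (0 of 28 each). Without replicate 3 of the fructose livers only Hmgcs1 passed, and without replicate 2 of the fructose tumours only Srebf2. DESeq2 called 7 of the 28 and 1696 of all genes.

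**Figure D3:**
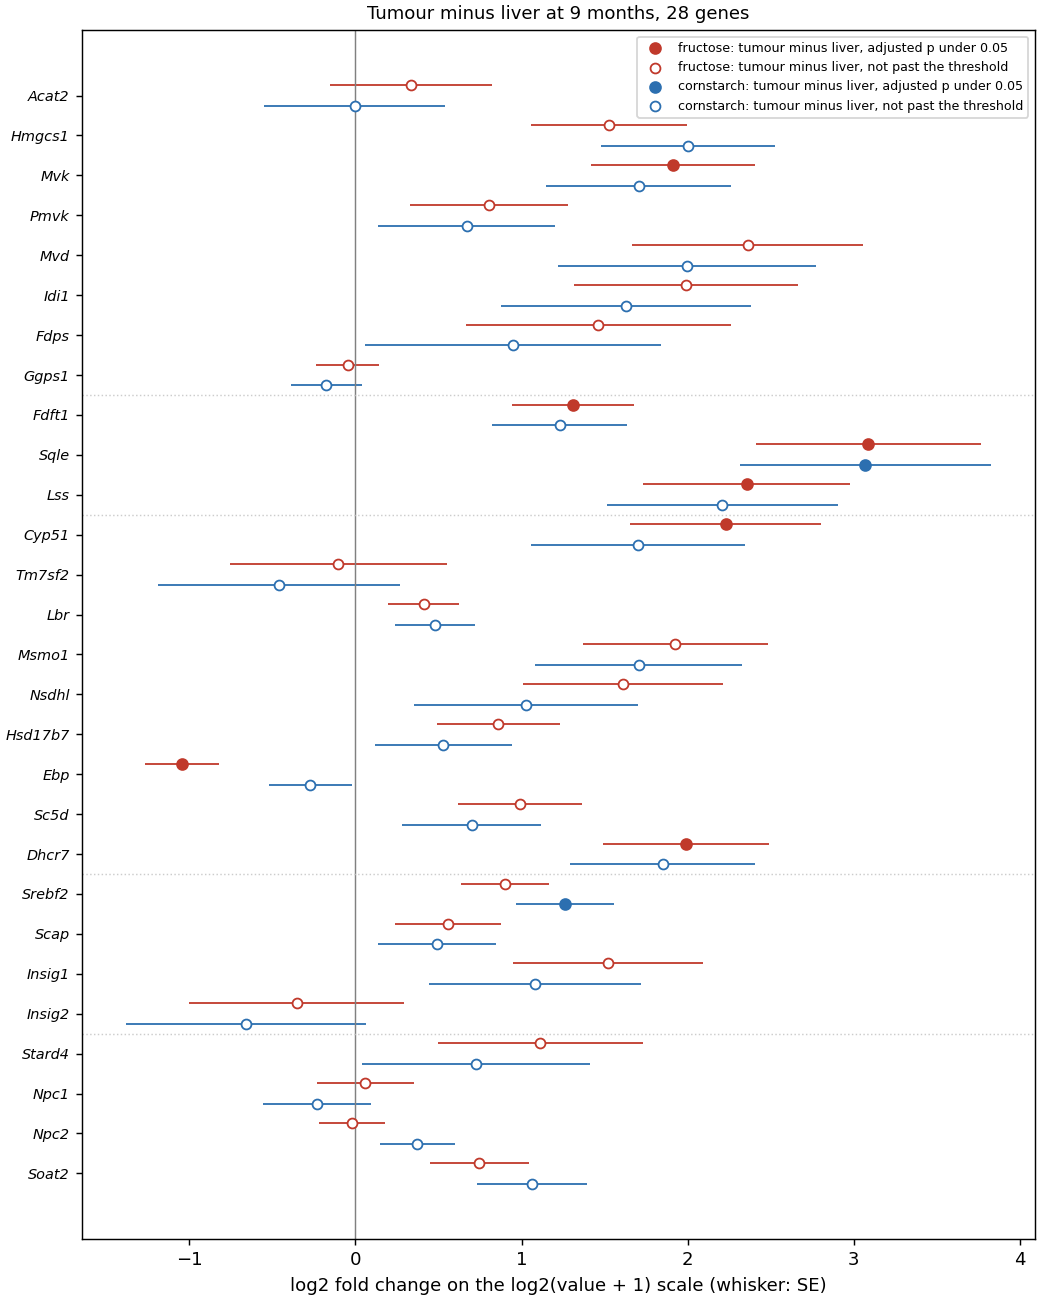
Log2 fold change, tumour minus liver at 9 months, of the 28 genes (rows, grouped by role with dotted lines), under fructose (red) and cornstarch (blue); whiskers are SE and filled points passed the threshold. Most points of both diets lie right of 0, with Sqle farthest at 3.09 under fructose and 3.07 under cornstarch, and Ebp lies left, at -1.04 under fructose and -0.27 under cornstarch.

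The 2 diets were then averaged, a comparison added after the results within each diet were seen. With 5 tumours against 6 livers, 13 of 28 genes were higher (46.4%) and 1 lower, where 23.8% of 14503 genes passed, 13.4% higher and 10.5% lower. The genes that rose were Sqle (8.44-fold), Lss (4.86-fold), Mvd (4.52-fold), Cyp51 (3.9-fold), Dhcr7 (3.78-fold), Msmo1 (3.52-fold), Idi1 (3.51-fold), Mvk (3.5-fold), Hmgcs1 (3.4-fold), Insig1 (2.46-fold), Fdft1 (2.41-fold), Srebf2 (2.12-fold) and Soat2 (1.87-fold). They took in 10 of the 20 synthesis enzymes. Ebp fell 1.58-fold (log2 fold change -0.66 with SE 0.17, limma adjusted p = 0.0186) and lost its call without replicate 1 of the cornstarch tumours (adjusted p = 0.067). Insig1 was at the threshold (limma adjusted p = 0.05). It lost its call with no filter (0.0636), with upper-quartile scaling (0.054), with edgeR (0.0549) and without any one of 8 of the 11 libraries (adjusted p = 0.0662 to 0.193).

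Mvd and Msmo1 show how far the groups spread. Mvd had 216, 545 and 618 in fructose tumours and 361 and 783 in cornstarch tumours, against 44.7, 98.5 and 118 in fructose livers and 324, 43 and 166 in cornstarch livers. Msmo1 had 1198, 1304 and 3039.6 in fructose tumours and 3284 and 4398 in cornstarch tumours, against 308, 568 and 492 in fructose livers and 1468, 449 and 2398 in cornstarch livers. Under each diet the groups were apart, but the highest cornstarch livers reached into the range of the fructose tumours.

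Sqle and Srebf2 were the only 2 of the 28 whose 5 tumours all lay above the 6 livers of 9 months, as did 7.96% of all genes, and Sqle alone lay above all 11 livers, as did 5.64%. The shares of all genes with 5 tumours below those livers were 5.02% and 2.43%. Without replicate 2 of the cornstarch tumours 7 of the calls were left: Sqle, Lss, Dhcr7, Mvk, Hmgcs1 and Srebf2 higher and Ebp lower. The other alternatives gave 12 to 17.

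Other measures differed between the same tissues. Summed counts of 4 tumour markers (Afp, Gpc3, Igf2, H19) were 4551 to 53199 in tumours, highest in replicate 2 of the cornstarch tumours, and 149.1 to 3002 in 9-month livers. Of the 4, 2 were higher in tumours without overlap, as were 7.96% of all genes. Of the 7 hepatocyte markers, 4 were lower in fructose tumours than in fructose livers without overlap (16.8% of all genes were). One of them was Hpd, an enzyme of tyrosine breakdown, with 2344 to 6799 in tumours and 23609 to 38363 in livers. Under cornstarch 2 of the 7 were lower without overlap (18.7% of all genes were) and 1, Alb, was higher (21.8% of all genes were). The mitochondrial share of reads was 2.54% to 4.29% in tumours and 4.68% to 7.73% in 9-month livers. Under fructose, macrophage markers summed to 4332 to 12853 in tumours and 14799.5 to 18616 in livers, with 3 of 7 lower without overlap (16.8% of all genes were). Under cornstarch they summed to 4243 to 4516 in tumours and 3110.0 to 8407 in livers. The part of these measures in the differences above was not tested.

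The control genes were followed across all 6 groups. Srebf2 had 1288, 897 and 1603 normalised counts in fructose tumours, 1243 and 1836 in cornstarch tumours, 681, 633 and 658 in 9-month fructose livers and 730.0, 439 and 775 in 9-month cornstarch livers. At 5 months it had 901 and 889.8 under fructose and 1019, 728 and 571 under cornstarch. Each tumour lay above each 9-month liver, while the lowest tumour, at 897, was within the range of the 5-month livers. The difference between tumours and livers passed under cornstarch and not under fructose (log2 fold change 0.90 with SE 0.26, limma adjusted p = 0.055), and the difference between these 2 results did not pass ( -0.36, SE 0.40, limma adjusted p = 1).

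Scap had 1704, 2963 and 2153 in fructose tumours, 1950.3 and 3909.8 in cornstarch tumours, 1307, 1527 and 1714 in 9-month fructose livers and 2930.5, 1681 and 1533 in 9-month cornstarch livers. Its 5-month values were 1657 and 1715 under fructose and 1820.1, 1765 and 2025 under cornstarch. It passed in 0 of the comparisons, and its groups of 9 months overlapped.

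Insig1 had 2036, 6781 and 3603 in fructose tumours, 3986 and 6536 in cornstarch tumours, 875, 2213 and 1084 in 9-month fructose livers and 4376, 1077 and 2984 in 9-month cornstarch livers. At 5 months it had 1059 and 754 under fructose and 2231, 1699 and 3183 under cornstarch. The 5-month livers did not overlap between diets, and those of 9 months did, since replicate 2 of the cornstarch livers was among the lowest.

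Insig2 holds back the same complex but is not a target of SREBP2, and in liver its main transcript is repressed by insulin. It had 3194, 3421 and 1741 in fructose tumours, 1505 and 2213 in cornstarch tumours, 2777, 1811 and 7885 in 9-month fructose livers and 3572, 6144 and 1091 in 9-month cornstarch livers. Its 5-month values were 5756 and 3009 under fructose and 1750.5, 3480.1 and 1384 under cornstarch. It passed in 0 of the comparisons, and its spread within 9-month livers covered the whole range of the series. The libraries highest in Insig2, replicate 3 of the 9-month fructose livers and replicate 2 of the 9-month cornstarch livers, had 1084 and 1077 of Insig1.

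**Figure D4:**
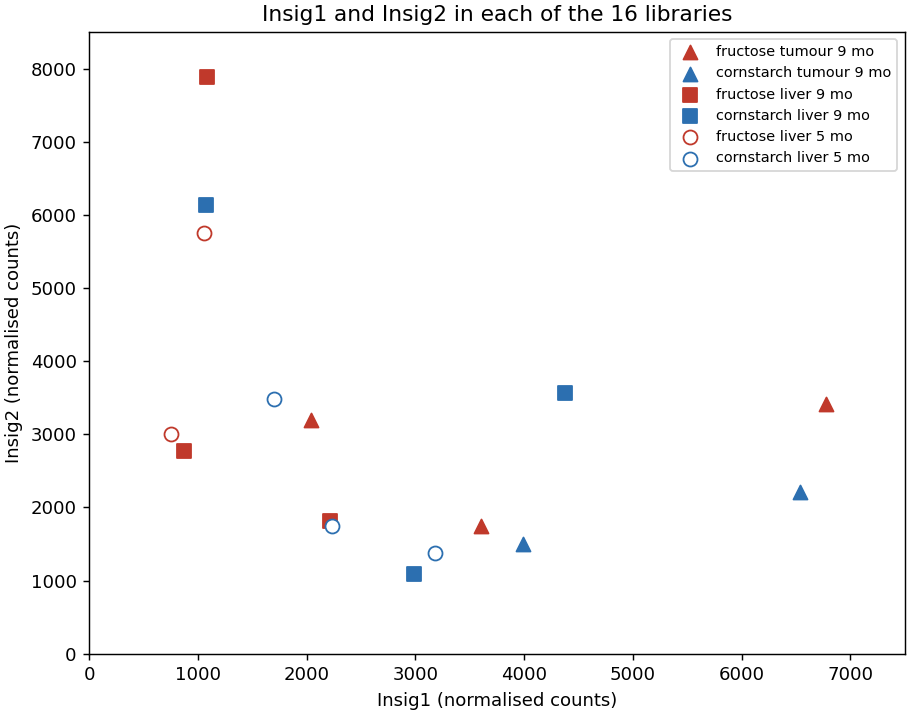
Insig1 (horizontal axis) and Insig2 (vertical axis) in normalised counts in each of the 16 libraries; colour gives the diet and shape the tissue and age. The 3 libraries highest in Insig2, at 5756 to 7885, had 1059 to 1084 of Insig1, and the 3 highest in Insig1, at 4376 to 6781, had 2213 to 3572 of Insig2.

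The diet comparison in livers asked whether fructose changed the pathway against cornstarch. At 5 months, 1 of 28 genes passed (3.57%), where 14.8% of 14317 genes did, 10.3% higher and 4.48% lower. Of all the genes called, 69.7% were higher, against 58.5% with upper-quartile scaling. The gene was Lbr (chromosome 1, 181815335 to 181843046, minus strand), with 397 and 288 normalised counts under fructose and 204, 151 and 150.5 under cornstarch. Both fructose livers lay above all 3 cornstarch livers and above every other library of the series (2.02-fold; log2 fold change 1.01 with SE 0.21, limma adjusted p = 0.0104). Neutrophil markers moved with it: 5 of 5 were higher under fructose without overlap, as were 27.1% of all genes. The neutrophil sums were 17770.4 and 19495 against 7.19 to 70.6, and their part in the Lbr value was not tested. Lbr lost its call without replicate 1 of the 5-month fructose livers (limma adjusted p = 0.0938) and without the 2 libraries of female pattern (adjusted p = 0.0621).

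Among the other 27 genes at 5 months, the lowest adjusted p belonged to Insig1 (-1.36, adjusted p = 0.125) and Npc1 (-0.63, adjusted p = 0.152). The median over the 28 was -0.32, against -0.01 over all genes, with 20 negative. Groups did not overlap for 13 genes (46.4%, against 51.8% of all genes), 4 of them higher (14.3%, against 27.1%) and 9 lower (32.1%, against 24.7%). Sqle differed most in size, with 366 and 661 under fructose and 253, 71.9 and 186 under cornstarch, without overlap but with adjusted p = 0.176 in limma.

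At 9 months 24 of 28 genes had lower mean log2 values under fructose, with a median of -0.92, against -0.02 over all genes, but 0 of 28 passed in limma, where 2.54% of 14317 genes did, 2.32% higher and 0.217% lower. Unadjusted limma p-values were under 0.05 for 2939 of all genes. edgeR also called 0 of the 28. DESeq2 called 7, all lower: Acat2, Cyp51, Fdft1, Lss, Msmo1, Nsdhl and Sc5d. Of all genes DESeq2 called 960, 739 higher and 221 lower. The groups did not overlap for 4 genes that were lower (14.3%, against 10.7% of all genes), which were Sc5d, Cyp51, Fdft1 and Tm7sf2. Npc2 was the 1 gene higher without overlap (3.57%, against 12.9% of all genes), and 23.6% of all genes separated either way.

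Sc5d had the smallest p, with 2089, 3835 and 3093 under fructose and 9457, 4484 and 5985 under cornstarch (log2 fold change -1.12 with SE 0.30, limma adjusted p = 0.08). Cyp51 had 355, 623 and 660.3 under fructose and 2335, 719 and 3161 under cornstarch (log2 fold change -1.73 with SE 0.51, limma adjusted p = 0.105). Fdft1 had 722, 838 and 736 under fructose and 1741, 848 and 2177 under cornstarch (log2 fold change -0.95 with SE 0.30, limma adjusted p = 0.123). In each of the 3 genes, replicate 2 of the cornstarch livers sat close to the fructose livers and the other 2 cornstarch livers stood well above. Without that library 6 genes passed, all lower: Acat2, Cyp51, Fdft1, Lss, Msmo1 and Mvk. In that fit 356 of all genes passed, 310 higher and 46 lower. Without any other single library 0 passed.

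Genes of fatty acid synthesis, driven by SREBP1, were also lower on average under fructose. At 9 months 11 of 12 were negative, with a median log2 fold change of -0.91, and 0 passed. At 5 months 10 of 12 were negative, with a median of -1.06, 9 were lower without overlap (75%, against 24.7% of all genes) and 0 passed. The order of single livers differed between the lists. In the 9-month libraries the median of the 12, as a deviation from each gene's own median, was -1.23, 0.70 and -0.34 under fructose and 2.30, -0.25 and -0.28 under cornstarch. Replicate 3 of the cornstarch livers was thus high in cholesterol synthesis, at 0.60, and not in fatty acid synthesis. Macrophage markers at 9 months were higher under fructose in 7 of 7 genes without overlap, as were 12.9% of all genes, with sums of 14799.5 to 18616 against 3110.0 to 8407. The 12 clock-output genes, of which 0 passed at 9 months, had medians of -0.39, 0.14 and -1.09 under fructose and 0.16, 0.33 and 0.24 under cornstarch. At 5 months 1 of the 12 was lower (8.33%, against 4.48% of all genes), Hlf (log2 fold change -0.76, limma adjusted p = 0.0279). Hlf was also lower over both ages (-0.485, limma adjusted p = 0.0254), where 7.61% of all genes were lower. Both Hlf calls were lost with 1 fit of all libraries, among other settings. The part of cell makeup and harvest time in the diet values was not tested.

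**Figure D5:**
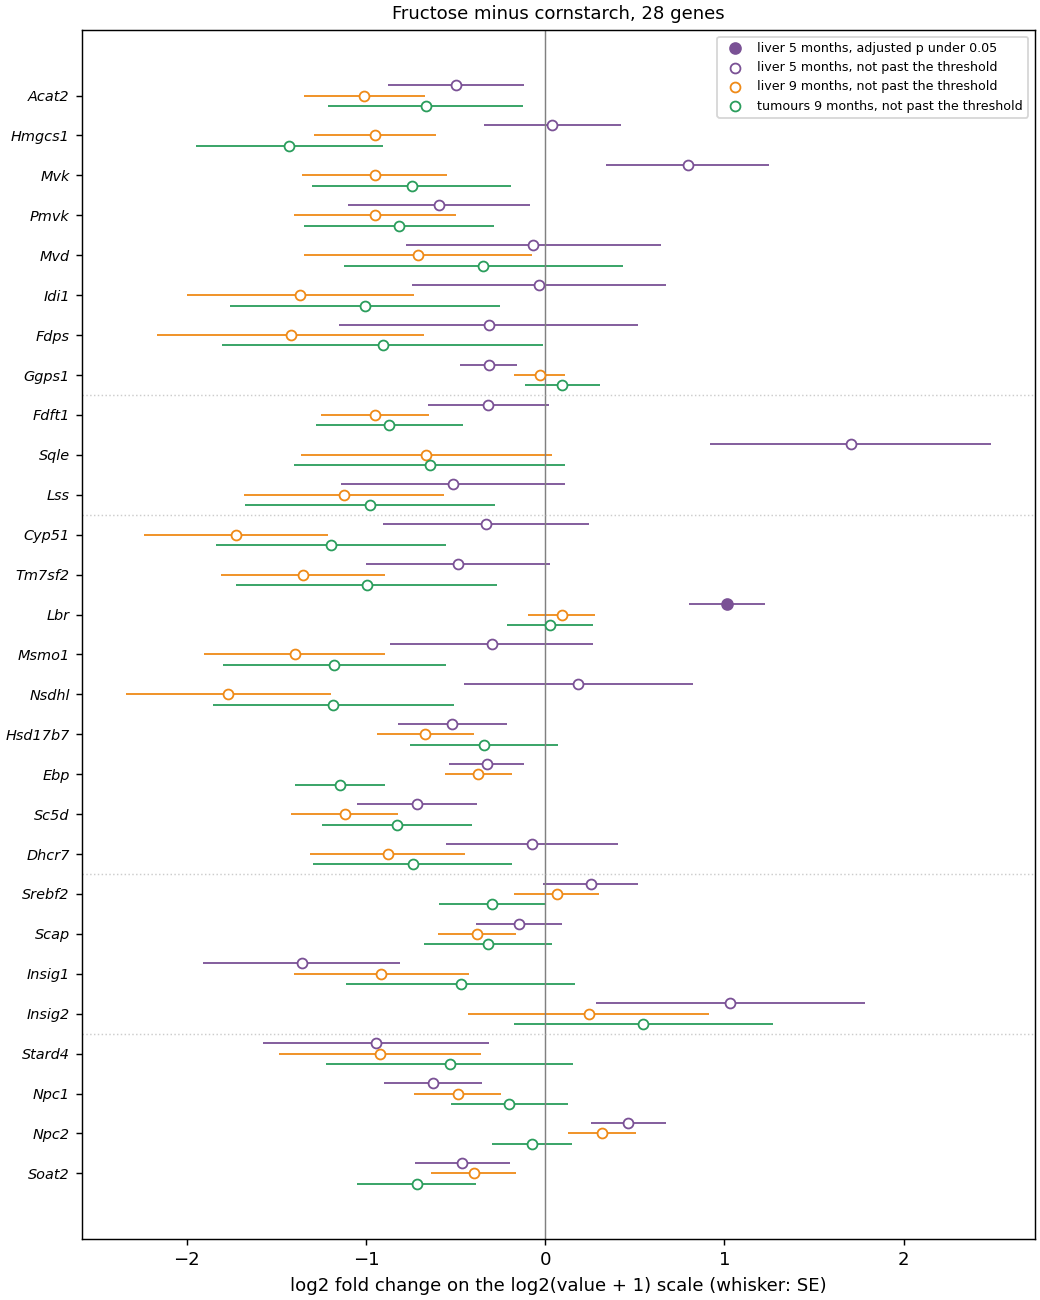
Log2 fold change, fructose minus cornstarch, of the 28 genes (rows, grouped by role with dotted lines) in livers of 5 months (purple), livers of 9 months (orange) and tumours of 9 months (green); whiskers are SE and the 1 filled point passed the threshold. Most values at 9 months and in tumours lie left of 0, with medians of -0.92 and -0.73, while Lbr and Sqle at 5 months lie right, at 1.01 and 1.70.

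Over both ages, Sc5d fell (1.89-fold; log2 fold change -0.92 with SE 0.22, limma adjusted p = 0.0164), Insig1 fell (2.2-fold; log2 fold change -1.14 with SE 0.37, limma adjusted p = 0.0498) and Lbr rose (1.47-fold; log2 fold change 0.55 with SE 0.14, limma adjusted p = 0.0197). That was 3 of 28 (10.7%), where 21.4% of 14317 genes passed, 13.8% higher and 7.61% lower. Sc5d had 2169 and 2396 under fructose and 3541, 2982 and 4994 under cornstarch at 5 months, so it did not overlap at either age. Insig1 was just inside the threshold. It lost its call with no filter (limma adjusted p = 0.061) and with 1 fit of all libraries (0.0644). With 1 liver left out, it mostly lost the call (adjusted p = 0.0594 to 0.171). It kept the call only without replicate 2 of the 9-month fructose livers or replicate 2 of the 9-month cornstarch livers. The median over the 28 was -0.58, with 23 negative. Without the 2 libraries of female pattern 0 of the 28 passed, without replicate 2 of the 5-month fructose livers only Lbr, and without replicate 1 of them Hsd17b7 and Npc1 in place of the 3. Without replicate 2 of the 9-month cornstarch livers 9 passed, where 2851 of all genes did, 1845 higher and 1006 lower.

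Whether the diet effect differed between ages was tested as an interaction, and 0 of 28 genes passed, where 0.698% of 14317 genes did, 0.00698% positive and 0.691% negative, and 1641 had an unadjusted limma p under 0.05. edgeR and DESeq2 also called 0 of the 28. The smallest p belonged to Lbr (difference -0.92, SE 0.28, limma adjusted p = 0.222), Mvk (-1.75, SE 0.61, adjusted p = 0.295) and Nsdhl (-1.95, SE 0.86, adjusted p = 0.417). Mvk had 88.4, 138 and 134 under fructose and 305, 112 and 350.2 under cornstarch at 9 months, and 109 and 204 under fructose and 108, 77 and 75.9 under cornstarch at 5 months. Nsdhl had 168, 506 and 431 under fructose and 1441, 502 and 2013 under cornstarch at 9 months, and 401 and 601 under fructose and 589, 229 and 595 under cornstarch at 5 months. In both genes replicates 1 and 3 of the 9-month cornstarch livers held the highest liver values. The median difference over the 28 was -0.62, against -0.02 over all genes.

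In tumours, 25 of 28 genes were lower on average under fructose, with a median of -0.73, against -0.03 over all genes, and 0 of 28 passed. Over all 14503 genes 0% passed in limma, 1178 had an unadjusted p under 0.05, edgeR called 0 and DESeq2 107. Ebp was closest, at 1054, 1396 and 1857 under fructose and 2766 and 3451 under cornstarch without overlap (log2 fold change -1.14 with SE 0.25, limma adjusted p = 0.277), and was the 1 gene of the 28 that DESeq2 called. Hmgcs1 had 2871, 2744 and 7408 under fructose and 7742 and 14056 under cornstarch, again without overlap (log2 fold change -1.43 with SE 0.52, limma adjusted p = 0.531). Soat2, which stores cholesterol as esters, had 1103, 671 and 813 under fructose and 1077 and 1793 under cornstarch, where replicate 1 of each diet had nearly the same value (log2 fold change -0.72 with SE 0.33, limma adjusted p = 0.617). Groups did not overlap for 3 genes, all lower (10.7%, against 12.5% of all genes). Macrophage markers summed to 4332 to 12853 in fructose tumours and 4243 to 4516 in cornstarch tumours. Of the 7, 4 were higher and 1 lower under fructose without overlap, where 10.9% of all genes were higher and 12.5% lower. The 4 tumour markers summed to 4551 to 19829 under fructose and 11575 to 53199 under cornstarch. The part of these markers in the diet values was not tested.

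The diet effect in tumours minus that in liver passed for 0 of 28 genes and for 0% of all 14503 in limma, with 424 of all genes at an unadjusted p under 0.05. edgeR and DESeq2 called 0 of all genes. The smallest p belonged to Ebp (difference -0.77, SE 0.34, limma adjusted p = 1), then Npc2 (-0.39, SE 0.30) and Srebf2. Npc2 had 1225, 1906 and 1861 in fructose tumours, 1522 and 1941 in cornstarch tumours, 1442, 1627 and 1924 in 9-month fructose livers and 1424, 1389 and 1179 in 9-month cornstarch livers. Only its livers were free of overlap between diets.

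Between ages, 1 of 28 genes passed, Lbr, which was 1.82-fold lower at 9 months (log2 fold change -0.87 with SE 0.14, limma adjusted p = 0.017), where 2.77% of 14317 genes passed, 0.768% higher and 2% lower. Of all the genes called between ages, 27.7% were higher, against 39% with upper-quartile scaling. Lbr had 141, 142 and 119.6 at 9 months and 397 and 288 at 5 months under fructose. Under cornstarch it had 146, 109 and 125 at 9 months and 204, 151 and 150.5 at 5 months, again without overlap. The call was lost without either 5-month fructose liver and without the 2 libraries of female pattern. Neutrophil markers moved with it under fructose, with sums of 147.7 to 198.5 in the 9-month livers and of 17770.4 and 19495 in the 5-month livers, and their part was not tested. Hmgcs1, at 0.97, came next and missed the threshold in limma (adjusted p = 0.0677). The median over the 28 was 0.30, against -0.01 over all genes, with 20 positive.

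Of the 4 genes of sterol transport and storage, 1 passed in 1 comparison. Npc1, which exports cholesterol from lysosomes, averaged 2494 ± 861 in fructose tumours and 2363 ± 774 in 9-month fructose livers (SD, n = 3 each). Npc2, its soluble partner, varied 1.86-fold over the 16 libraries. Stard4, a cytosolic sterol carrier and SREBP2 target, had 461, 1751 and 751 in 9-month fructose livers and 3123, 956 and 1382 in 9-month cornstarch livers, a wide overlap. Soat2 was the gene that passed in limma, in tumours against livers averaged over diets (log2 fold change 0.90 with SE 0.22, limma adjusted p = 0.0158), with 546, 504 and 463 in fructose livers and 638, 455 and 1009 in cornstarch livers beside the tumour values above.

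Other genes of sterol handling were read from the same fits. At 5 months, 0 of 11 genes of SREBP maturation and sterol-regulated turnover and 0 of 8 of LXR and sterol efflux passed. In sterol esters and lysosome 2 of 8 rose (25%, where 10.3% of all genes did) and in sterol breakdown 1 of 8 tested fell (12.5%, against 4.48%). Cyp46a1, a cholesterol 24-hydroxylase, fell to 11.5 ± 0.173 under fructose, against 113 ± 38.7 under cornstarch (SD, n = 2 and 3; log2 fold change -3.13 with SE 0.38, limma adjusted p = 0.000844). Soat1, a cholesterol-esterifying enzyme abundant in macrophages, averaged 339 ± 38.6 under fructose and 135 ± 17.3 under cornstarch (log2 fold change 1.33 with SE 0.27, limma adjusted p = 0.00966), and Gramd1b, a sterol transporter of the endoplasmic reticulum, 131 ± 1.91 under fructose and 62.3 ± 10.5 under cornstarch (log2 fold change 1.07 with SE 0.27, limma adjusted p = 0.0235). Both calls were lost without replicate 2 of the 5-month fructose livers and without the 2 libraries of female pattern, and that of Gramd1b also without replicate 1 of those livers or replicate 2 or 3 of the 5-month cornstarch livers.

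At 9 months, where 2.32% of all genes rose, Soat1 and Gramd1b rose again (2 of 8), by 2.34-fold and 2.73-fold with limma adjusted p = 0.0336 and 0.0243. In the LXR list 1 of 8 rose, Abcg1, a sterol efflux pump, with 339 ± 53.1 under fructose and 99.6 ± 48.8 under cornstarch (SD, n = 3 each; log2 fold change 1.89 with SE 0.35, limma adjusted p = 0.0288). All 3 calls were lost without any one of the 3 fructose livers of 9 months, without replicate 3 of the cornstarch livers of 9 months and without the 2 libraries of female pattern. Soat1 also lost its call without either 5-month fructose liver. Over all genes 363 passed, and 1, 5 and 0 without replicates 1, 2 and 3 of those fructose livers and 11 without that cornstarch liver. Macrophage markers moved with these genes, as given above, and at 5 months summed to 18401 and 21574 under fructose against 7461 to 12682 under cornstarch; their part was not tested. Over both ages, where 13.8% of all genes rose and 7.61% fell, 2 of 8 LXR genes and 2 of 8 of sterol esters rose and 1 of 8 of each fell. In the same comparison 1 of 8 breakdown genes and 1 of 12 of the non-sterol isoprenoid branch fell, and 0 of 11 of SREBP maturation passed. Cyp46a1 fell 4.33-fold, Gramd1b rose 2.4-fold and Soat1 rose 2.42-fold, with limma adjusted p = 0.000558, 0.00123 and 0.00124. In fructose tumours, where 5.75% of all genes rose and 4.46% fell, 1 of 8 LXR genes rose, the HDL receptor Scarb1 (1.76-fold), and 2 of 8 breakdown genes fell, Cyp46a1 (13.2-fold) and the bile acid enzyme Akr1d1 (2.83-fold), with limma adjusted p = 0.017, 0.00328 and 0.0211. Cyp46a1 counts were few, at 4.05 to 7.83 in fructose tumours and 72.5 to 87.4 in fructose livers. Its log2 fold change was -3.72, and -3.06 with a pseudocount of 5, so the size of its fall is uncertain. The Scarb1 call was lost without replicate 1 or 2 of the fructose livers or replicate 2 of the fructose tumours, and the Akr1d1 call without any one of those livers or replicate 1 of those tumours. In cornstarch tumours, where 0.889% of all genes fell, Cyp46a1 fell too (7.55-fold, log2 -2.92, limma adjusted p = 0.021). Its log2 value was -3.99 without replicate 1 of those tumours and -1.84 without replicate 2, where the call was lost, as it was without replicate 2 or 3 of the cornstarch livers. Of the 12 genes of the non-sterol isoprenoid branch and the 11 of SREBP maturation, 0 passed in either tumour comparison. Of the 12 genes of SREBP1 and fatty acid synthesis, 0 passed for diet in livers at either age or in tumours, and 1 rose in fructose tumours. At 9 against 5 months, where 0.768% of all genes rose, 1 of 8 breakdown genes did, Cyp46a1 (3.22-fold, limma adjusted p = 0.0143, lost without either 5-month fructose liver or the libraries of female pattern), and 0 passed in the other lists of sterol genes. For diet in tumours 0 passed in any of these lists in limma.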

How the data were processed

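RNA from DEN-treated mouse liver and liver tumour was sequenced after TruSeq mRNA preparation, per the labels' protocols. The authors deposited 1 table of signal values, which are normalised counts for 47069 Ensembl gene IDs in 16 libraries. FastQC, Trim Galore, STAR, RSEM, DESeq2 and GRCm38 are named, with no version or role, per the submitters' processing notes. Strand use in counting is not given in the sources used here. Whole reads came back for 100.0% of values, within 0.01, when a library was divided by the worth of 1 read in it. Recovered totals were 11232461 to 38377674 reads. Their number limits the precision, and reads without molecular identifiers are not independent molecules.

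limma 3.58.1 (R 4.3.3) was run on log2(value + 1) with group means and a variance trend. The 11 livers entered 1 fit and the 11 libraries of 9 months, for tumours, another. Testing took the genes that reached 10 in 2 or more of those libraries, 14317 in the liver fit and 14503 in the tumour fit. The p-values of each comparison were adjusted over all of them (Benjamini-Hochberg), with a threshold of 0.05. A fold change on this scale understates that of a low gene.

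Alternatives were a pseudocount of 5, no filter, upper-quartile scaling, edgeR 4.0.16 quasi-likelihood and DESeq2 1.42.0 on recovered reads, 1 fit of all libraries, leaving out each library, and leaving out the 2 libraries of female pattern. Tumour against liver over both diets and the looser sterol motif were added after the data were seen. Coordinates and exon lengths came from GENCODE M21 on GRCm38 and promoters from RefSeq on GRCm38.p6. Tested on simulated data over all tested genes, the fits recovered 75% to 99% of 4-fold and 18% to 79% of 2-fold changes, depending on the comparison. Recovery was not measured for the cholesterol genes alone. Their median SD within groups was 0.643 on the log2 scale, against 0.313 over all genes past the filter. The simulated rates therefore do not say how often a change in the cholesterol genes would be found.

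The 28 genes and the other lists were chosen with earlier results of these data known. Values in every library are given for genes past the threshold, up to 6 a comparison, or for the 3 with the smallest p where none passed. Srebf2, Scap, Insig1 and Insig2 are always given, with up to 3 genes past the threshold from the other lists. Further genes shown by library (Mvd, Msmo1, Stard4 and some values of the genes above in other comparisons) were picked after their values were seen. The labels give no replicate numbers, batch or date, and no per-sample column was left unused.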

Additional observations from a re-analysis of the deposited data

How the results depend on the processing

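No paired analysis was possible because the labels carry no replicate numbers. The counts of the 28 genes past the threshold in limma were 1 for diet at 5 months, 0 at 9 months, 3 over both ages, 0 in tumours, 7 for tumours against livers under fructose, 2 under cornstarch, 14 over both diets and 1 for age. With DESeq2 on recovered reads they were 2, 7, 12, 1, 14, 7, 17 and 2 in the same order. Without the 2 libraries of female pattern they were 0 at 5 months, 0 over both ages and 0 for age. Upper-quartile scaling gave 6 over both ages. With 1 fit of all libraries, 11 passed under fructose and 6 under cornstarch, and with no filter 1 passed under cornstarch. Leaving out 1 library at a time gave 0 to 2 at 5 months, 0 to 6 at 9 months, 1 to 9 over both ages, 0 to 10 in tumours against livers under fructose, 0 to 3 under cornstarch, 7 to 17 over both diets and 0 to 2 for age. The cause of these shifts was not tested, beyond that fewer libraries were fitted.

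Over all genes, limma called 363 for diet at 9 months, against 960 by DESeq2, 46 without the libraries of female pattern and 0 to 448 without 1 library. It called 2119 at 5 months, against 973 without the libraries of female pattern and 459 to 2628 without 1 library, and 3059 over both ages, against 1416 to 3247. It called 397 for age, against 1081 by DESeq2, 42 without the libraries of female pattern and 15 to 796. For tumours against livers it called 1481 under fructose, against 2463 by DESeq2, 2246 in 1 fit and 568 to 1569, and 828 under cornstarch, against 1696, 1465 and 73 to 1100. Over both diets it called 3458, against 1498 to 3623. For the difference between ages it called 100, against 318 by DESeq2, 174 with pseudocount 5, 46 by edgeR, 64 with upper-quartile scaling, 37 without the libraries of female pattern and 2 to 83 without 1 library. Upper-quartile scaling moved the share of higher calls at 5 months to 58.5%, against 69.7%, and for age to 39%, against 27.7%. Leaving out 1 library at a time, the median difference of the diet effect between tumour and liver over the 28 genes, 0.21, changed sign without replicate 1 of the fructose livers (-0.04), replicate 1 of the cornstarch livers (-0.07), replicate 3 of the fructose tumours (-0.12) or replicate 1 of the cornstarch tumours (-0.19), and reached 0.63 without replicate 2 of the cornstarch tumours. Of the named genes' tests with 1 library left out, 534 kept their side of the threshold, 146 lost it and 2 gained it. Under the other settings 364 kept it, 32 lost it and 4 gained it. With 2 or 3 libraries a group, 2-fold changes are often missed. Larger changes may be missed too in genes that vary as widely within groups as the cholesterol genes.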
